A study of Rattus norvegicus with 6 samples.

Results

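The calcineurin and NFAT family was examined in cultured neonatal rat ventricular myocytes given the complement fragment C3a. The 10 genes were Ppp3ca, Ppp3cb and Ppp3r1 (calcineurin subunits), Nfatc1, Nfatc2, Nfatc3, Nfatc4 and Nfat5 (NFAT transcription factors) and Rcan1 and Rcan2 (calcineurin regulators). They were found by matching the transcript identifier of each array probe to the rat gene table, which named 16581 genes, and for each gene the values shown are those of the probe whose signal, averaged over all arrays, was highest. The series held 6 one-colour arrays. Ventricular cells pooled from 8 to 10 Sprague-Dawley rats aged 1 to 2 days were cultured in serum-free medium. The 3 control samples had medium alone, and the 3 C3a samples had recombinant C3a at a final concentration of 0.5 µg/ml for 12 h. No label says that samples of a group came from separate preparations, so p-values measure the spread between these samples, which may be technical.

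Calcineurin is a phosphatase that calcium and calmodulin switch on. It removes phosphates from Nfatc1, Nfatc2, Nfatc3 and Nfatc4, which then enter the nucleus and act with partners such as GATA4, MEF2 and AP-1. In the heart the pathway is known for its part in hypertrophic growth, and Rcan1, itself an NFAT target that binds and restrains calcineurin, is widely used as a readout of the pathway. These proteins are controlled largely by calcium and phosphorylation, which an RNA measurement does not see.

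The promoters of Rcan1 and Nfatc2 are shown because Rcan1 is the readout gene and Nfatc2 was the member with the smallest p-value. Each runs from 250 bases before to 50 bases after the annotated start (RefSeq, GRCr8, minus strand, written 5′ to 3′ along the gene), and capitals mark the NFAT core GGAAA or its reverse complement TTTCC. The Rcan1 window is chr11:45118187-45118486 and the Nfatc2 window is chr3:177732925-177733224.
Rcan1: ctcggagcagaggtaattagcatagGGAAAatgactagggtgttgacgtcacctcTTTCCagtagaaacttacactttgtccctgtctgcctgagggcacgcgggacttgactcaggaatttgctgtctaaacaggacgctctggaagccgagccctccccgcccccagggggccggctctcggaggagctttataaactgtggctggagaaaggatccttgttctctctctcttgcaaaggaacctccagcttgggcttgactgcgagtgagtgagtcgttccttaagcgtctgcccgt
Nfatc2: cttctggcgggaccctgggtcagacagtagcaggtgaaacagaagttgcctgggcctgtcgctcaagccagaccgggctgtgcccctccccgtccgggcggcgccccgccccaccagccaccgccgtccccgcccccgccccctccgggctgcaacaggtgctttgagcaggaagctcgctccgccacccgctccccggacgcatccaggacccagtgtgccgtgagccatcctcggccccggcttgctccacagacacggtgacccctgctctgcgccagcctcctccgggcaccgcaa

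The Rcan1 window held 2 matches to the NFAT core, beginning 225 and 195 bases before the start, and 1 match to the AP-1 motif TGANTCA. The Nfatc2 window held 0 matches to the core. Of all 27457 RefSeq promoters of this length, 62.5% held the core at least once, 28.2% held it at least 2 times, and 7.33% held the AP-1 motif, with both strands searched. The annotated Rcan1 start lay 69.8 kb inside the gene, and the Nfatc2 start lay 14.5 kb inside its gene, so these windows belong to internal starts. Of the 6 members with a promoter sequence, Rcan1, Ppp3cb and Ppp3r1 held the core, and Ppp3ca, Rcan2 and Nfatc2 did not. No promoter was at hand for Nfatc1, Nfatc3, Nfatc4 and Nfat5. A match is a string of letters and not a measured binding site.

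The arrays carried 62976 spots each, and 53.7% to 57.3% of probes were well above background on 5 of them. On control replicate 1 the share was 38.6%, and the median local background was 47 intensity units against 23 to 24 elsewhere. All 6 arrays sat on 1 slide, with controls on one side and C3a arrays on the other, so that side and treatment cannot be told apart. The myocyte label was checked with cell type markers. All 11 measured cardiomyocyte markers were above background on all 6 arrays, and their summed level was 12.33 to 12.69 in controls and 12.63 to 12.80 with C3a (levels here are log2 signals, scaled so that the 75th percentile of each array is at 0). Control replicate 2 was the lowest array for several of them, such as Myh6 (9.84) and Ckm (7.89). It was the highest array for Ryr2 (2.80) and Mybpc3 (7.39). Of 9 fibroblast markers, 6 were above background on all 6 arrays (summed level 6.61 to 6.80 in controls and 6.59 to 6.82 with C3a). The same held for 5 of 6 endothelial markers (5.06 to 5.52 and 5.40 to 5.74), 2 of 6 macrophage markers (2.48 to 2.82 and 2.46 to 2.60, with Cd163 and C1qa never above background) and 3 of 4 smooth muscle markers (5.05 to 5.27 and 5.10 to 5.20). The T cell markers Cd3e, Cd3g and Cd8a were never above background, while Cd4 was above it on all 6 arrays. The part of other cells in the results was not tested, and in such bulk RNA fewer cells of a type and less RNA per cell cannot be told apart.

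All 10 members were detected on all 6 arrays, and none passed the test of C3a against control after adjustment over the 23438 probes tested. The members' adjusted p-values lay between 0.743 and 0.951 (limma with Benjamini-Hochberg adjustment). Over all 10390 genes with a tested probe, 0 genes (0%) passed. At an unadjusted p under 0.05, 1 of 10 members passed (Nfatc2, higher), against 5.33% of all genes. With the replicate number as a block, 2 of 10 members passed unadjusted (Nfatc2 and Rcan2), against 11.8% of all genes, and 0 passed after adjustment, with adjusted p-values of 0.226 to 0.927. By the methods' t-test 2 of 10 members passed unadjusted (Nfatc2 and Nfat5), against 4.93% of all genes. The members' log2 fold change was above 0 for 7 and below 0 for 3, with a median of 0.040 against 0.036 for all genes, but without normalization between arrays, where the median of all probes moved from 0.05 to -0.28, it was below 0 for all 10. C3a and control arrays did not overlap for 2 of 10 members (20%), against 13% of all genes.

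**Figure D1:**
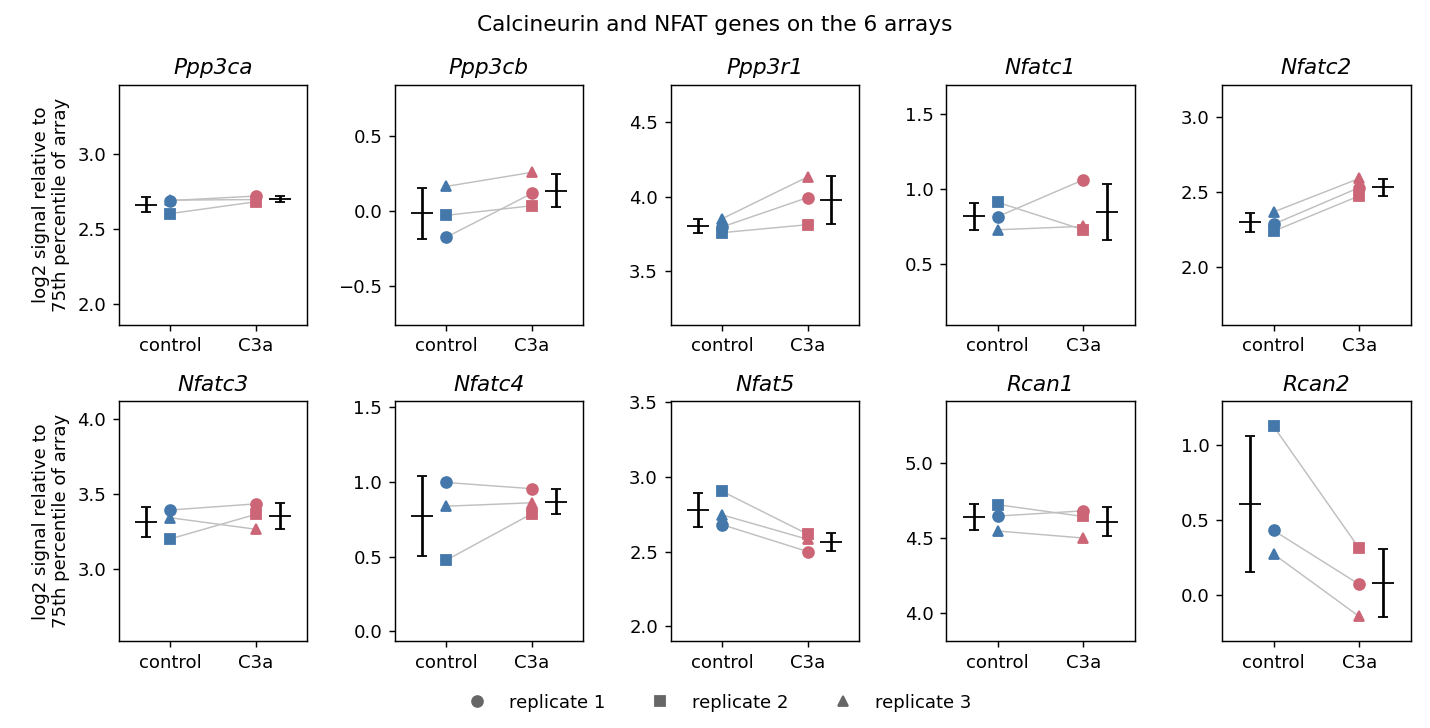
Signal of the 10 genes on each array, on the log2 scale with each array's 75th percentile at 0, with control and C3a arrays as points (n = 3 each). The groups overlap for 8 genes, while the 3 C3a arrays lie above the controls for Nfatc2 and below them for Nfat5.

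The calcineurin subunits came first. Ppp3ca, a catalytic subunit, gave 2.69, 2.60 and 2.69 on control replicates 1 to 3 and 2.72, 2.68 and 2.70 on C3a replicates 1 to 3. These 6 arrays spanned a narrow range and the groups overlapped. Ppp3ca had a log2 fold change of 0.04 (SE 0.09, 95% interval -0.17 to 0.24, adjusted p = 0.904 by limma). A second Ppp3ca probe differed by 0.10 (95% interval -0.13 to 0.33) and another by -0.25 (95% interval -0.55 to 0.06, adjusted p = 0.743), and each of these intervals spans 0.

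Ppp3cb, also a catalytic subunit, gave -0.18, -0.03 and 0.16 in controls and 0.12, 0.03 and 0.26 with C3a. The groups overlapped, with a log2 fold change of 0.15 (SE 0.12, 95% interval -0.14 to 0.44, adjusted p = 0.753). Ppp3r1, the calcium-binding regulatory subunit, gave 3.80, 3.76 and 3.85 in controls and 3.99, 3.81 and 4.13 with C3a. C3a replicate 2 lay within the control range and the other C3a arrays lay above it. Its log2 fold change was 0.18 (SE 0.11, 95% interval -0.08 to 0.44, adjusted p = 0.743), and a second probe gave 0.16 (95% interval -0.16 to 0.47).

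Nfatc2 was higher on every C3a array, but the difference did not pass adjustment. Its controls were 2.29, 2.24 and 2.37, and its C3a arrays 2.53, 2.47 and 2.59. The means were 2.30 ± 0.065 and 2.53 ± 0.058 (SD, n = 3), and the groups did not overlap. The log2 fold change was 0.23, a 1.18-fold difference (SE 0.09, 95% interval 0.02 to 0.45, unadjusted p = 0.0379, adjusted p = 0.743 by limma). The exact two-sided permutation test gave p = 0.1, the smallest that 3 arrays against 3 allow. The difference within each replicate number was 0.24, 0.24 and 0.22. Leaving out any 1 of the 6 arrays kept the fold change between 0.20 and 0.27 but raised the unadjusted p to between 0.058 and 0.0989. The Nfatc2 probe was designed on a predicted transcript model, and the second probe, designed on a curated transcript, was above background on only 1 control and 1 C3a array and was not tested.

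The other calcium-responsive factors showed smaller differences. Nfatc1, known for its part in valve formation, gave 0.82, 0.91 and 0.73 in controls and 1.06, 0.73 and 0.75 with C3a, a log2 fold change of 0.03 (95% interval -0.26 to 0.32, adjusted p = 0.951). Nfatc3, linked in mice to cardiac hypertrophy, gave 3.39, 3.20 and 3.34 in controls and 3.43, 3.36 and 3.26 with C3a, a log2 fold change of 0.04 (95% interval -0.20 to 0.28, adjusted p = 0.906). Nfatc4, also linked to hypertrophy, gave 0.99, 0.47 and 0.84 in controls and 0.95, 0.79 and 0.86 with C3a, a log2 fold change of 0.10 (95% interval -0.25 to 0.44, adjusted p = 0.848). The groups overlapped for all 3 genes, and control replicate 2 was the lowest array for both Nfatc3 and Nfatc4. A dimmer second Nfatc3 probe gave -1.48, -1.43 and -1.65 in controls and -1.21, -1.35 and -1.34 with C3a, with no overlap and a log2 fold change of 0.22 (95% interval -0.03 to 0.46, adjusted p = 0.743). The second Nfatc1 probe, above background on 2 control and 3 C3a arrays, differed by 0.09 (95% interval -0.29 to 0.47).

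Nfat5 is the family member that lacks the calcineurin docking region and responds to hypertonic stress. Its probe with the highest mean signal gave 2.68, 2.90 and 2.75 in controls and 2.50, 2.62 and 2.58 with C3a. Every C3a array was lower than every control, with means of 2.78 ± 0.11 and 2.57 ± 0.060 (SD, n = 3). The log2 fold change was -0.21 (SE 0.10, 95% interval -0.45 to 0.03, adjusted p = 0.743 by limma), and the exact permutation p was 0.1. The second Nfat5 probe ran the other way, at -1.79, -1.52 and -1.42 in controls and -1.46, -1.28 and -1.15 with C3a. Its groups overlapped, it was above background on 2 control arrays and 3 C3a arrays, and its log2 fold change was 0.28 (95% interval -0.04 to 0.60, adjusted p = 0.743), or 0.17 without control replicate 1. Within the replicate numbers this probe differed by 0.33, 0.24 and 0.27, and with the block its 95% interval was 0.06 to 0.50 (unadjusted p = 0.0216, adjusted p = 0.294 by limma). It was tested only because it was above background on all C3a arrays, the group where it was higher. The mean of both probes gave 0.03.

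**Figure D2:**
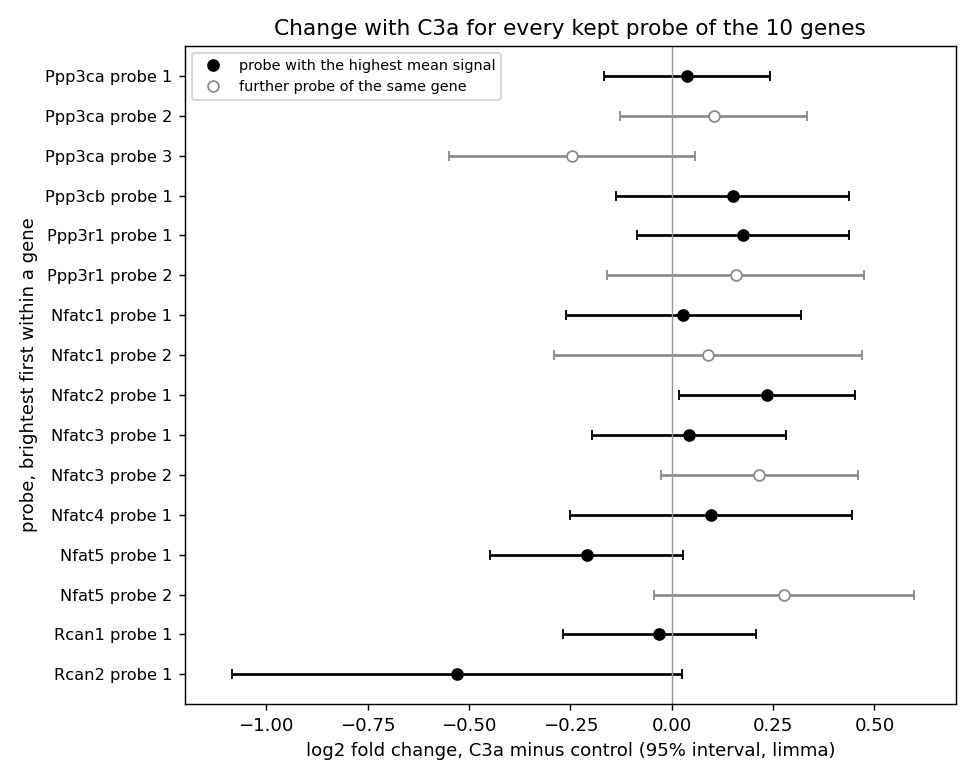
Log2 fold change (C3a minus control) with its 95% interval from limma for the 16 tested probes of the 10 genes, with filled points for the probe with the highest mean signal and open points for further probes. The interval of Nfatc2 alone excludes 0, and the 2 Nfat5 probes lie on opposite sides of 0.

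For Rcan1, the readout gene, the difference between the groups was smaller than the spread of the arrays. Its controls were 4.65, 4.72 and 4.55, and its C3a arrays 4.68, 4.65 and 4.50. The means were 4.64 ± 0.088 and 4.61 ± 0.096 (SD, n = 3), and the groups overlapped. Rcan1 had a log2 fold change of -0.03 (SE 0.10, 95% interval -0.27 to 0.21, adjusted p = 0.934 by limma). The interval runs from 0.830-fold to 1.16-fold and measures the spread between these samples, which may be technical. For these samples a larger rise at 12 h lay outside it, while a smaller one cannot be told from none with 3 arrays a group. The single Rcan1 probe gives no separate value for the transcripts from different starts.

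Rcan2, a related calcineurin inhibitor known as a thyroid hormone target, had the largest fold change of the 10 genes. It gave 0.43, 1.13 and 0.27 in controls and 0.07, 0.31 and -0.14 with C3a. Among cardiomyocyte markers, control replicate 2 was the lowest array for several and the highest for Ryr2 and Mybpc3. For Rcan2 it was far above the other 5 arrays, and the groups overlapped. The means were 0.61 ± 0.45 and 0.08 ± 0.23 (SD, n = 3). The log2 fold change was -0.53, or 0.693-fold (SE 0.24, 95% interval -1.09 to 0.03, adjusted p = 0.743 by limma). Within the replicate numbers it was -0.36, -0.81 and -0.42, and with the block the SE was 0.12 and the unadjusted p 0.00608 (adjusted p = 0.226 by limma). Leaving out control replicate 2 brought the change to -0.27.

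**Figure D3:**
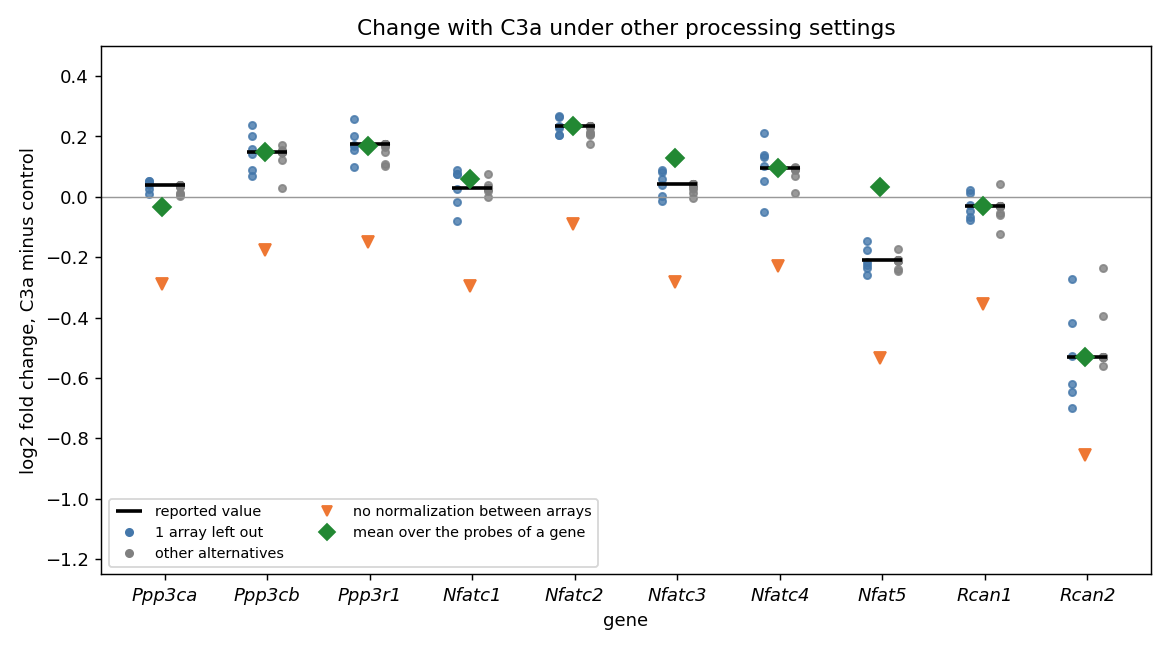
Log2 fold change (C3a minus control) of the 10 genes as reported (black bars), with 1 array left out (blue points) and under the other processing alternatives. Without normalization between arrays (orange triangles) all 10 values are below 0, and with the mean over probes (green diamonds) Nfat5 and Ppp3ca change sign.

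Around these genes, 72 genes of the pathway were listed in 7 lists. Of these, 67 had a named probe and 56 were tested. The log2 fold change was above 0 for 35 and below 0 for 21, with a median of 0.042 against 0.036 for all genes. As the median of all genes was above 0, most genes of the array lay above 0 too, and the sign depends on the scaling. At an unadjusted p under 0.05, 1 of 56 (1.79%) passed against 5.33% of all genes, and 0 passed after adjustment (limma, adjusted p of 0.743 to 0.996).

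Calmodulin and the other calcineurin subunits (4 tested, 3 above 0) had a median of 0.06, with 0.10 for Calm3, which encodes calmodulin. The inhibitors, anchors and immunophilins (10 tested, 7 above 0) had a median of 0.08, with 0.13 for Ppia (cyclophilin A, the cyclosporin receptor) and 0.13 for Cib1, a calcium-binding protein that anchors calcineurin. The NFAT kinases, which return NFAT to the cytoplasm (11 tested, 6 above 0), had a median of 0.04, with 0.24 for Prkaca and 0.04 for Mapk14. None of these genes passed the unadjusted threshold.

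The calcium supply genes (9 tested, 6 above 0) had a median of 0.05, with 0.11 for the channel gene Orai3 and 0.0047 for the T-type channel gene Cacna1h. The nuclear partners, a list that also held scaffold genes (11 tested, 6 above 0), had a median of 0.02, with 0.02 for Mef2d and 0.02 for the scaffold gene Homer3. The Nfat5 osmotic targets (6 tested, 4 above 0) had a median of 0.09, with 0.12 for the water channel gene Aqp1 and -0.06 for the amino acid transporter gene Slc38a2. Akr1b1, the aldose reductase that makes sorbitol, differed by -0.31 (95% interval -0.65 to 0.04, adjusted p = 0.743 by limma) and, among these genes, was the 1 that passed the unadjusted threshold with the block (limma, adjusted p = 0.303). It was named after its value was seen.

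Of the NFATc targets, 5 were tested, 3 were above 0 and the median was 0.01. Edn1, which encodes endothelin, was the 1 gene past the unadjusted threshold. It gave -3.35, -2.79 and -3.13 in controls and -3.66, -3.60 and -3.66 with C3a, so every C3a array was below every control. Edn1 had a log2 fold change of -0.55 (SE 0.15, 95% interval -0.91 to -0.20, unadjusted p = 0.00787, adjusted p = 0.743 by limma). Edn1 was dim and was above background on only 5 of 6 arrays, so it was tested through 1 fully detected group. It dropped out when only probes above background on all 6 arrays were tested, and 0 pathway genes then passed unadjusted. The inflammatory targets Ptgs2, Faslg, Tnf and Il6 and the kinin receptor gene Bdkrb2 were above background on 0 of 6 arrays, while the chemokine gene Ccl2, named after its values were seen, was above background on all 6 and differed by -0.02 (95% interval -0.28 to 0.24, adjusted p = 0.959 by limma).

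**Figure D4:**
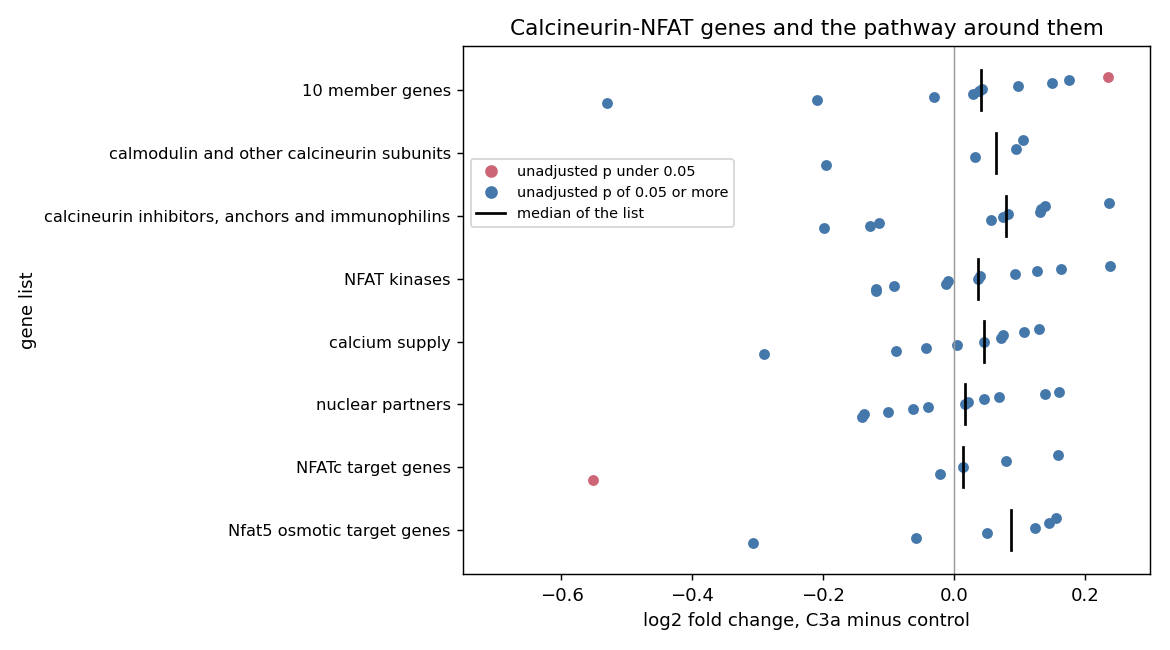
Log2 fold change (C3a minus control) of every tested gene in the 10 members and the 7 pathway lists, with 1 point per gene, red for an unadjusted p under 0.05 and a black line at the median of each list. Medians lie between 0.01 and 0.09, and the red points are Nfatc2 and Edn1.

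Among 9637 candidates, genes whose pattern over the 6 arrays was close to that of Rcan1 included Unc119b (Pearson r = 0.984) and Usp16 (r = 0.977), and 103 genes had r over 0.9. For Nfatc2 they included Or8s5 (r = 0.996) and Igsf3 (r = 0.983), with 199 genes over 0.9. These are descriptions over 6 arrays of 1 slide, which share their scaling.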

How the data were processed

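Total RNA was labelled with Cy3 and hybridised to SurePrint G3 Rat GE 8x60K arrays, and the authors deposited the background-corrected spot intensity from Agilent Feature Extraction 11.5.1.1. A log2 table of 36638 probes that the authors deposited was also read. Its values lay within 0.0062 (median absolute difference) of the scanner's log2 intensity after subtraction of the 75th percentile, with column medians of -3.13 to -3.00 and no centring.

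Control spots and spots with outlier flags were left out, the remaining spots of a probe were averaged on the linear scale, and from log2 of that mean was subtracted the 75th percentile over the 45572 probes (of 45598) with a value on all 6 arrays. Averaging on the log2 scale and a percentile over all probes were tried too. The reported combination was kept after counts over the whole table had been seen, because it gave the counts of an earlier processing of these data, and the other 3 are given with the alternatives. Probes were named through RefSeq (GRCr8), which matched 21109 probes (46.3%). Tests covered 23438 probes, those flagged well above background on each of the 3 arrays in at least 1 group, and used limma 3.58.1 in R 4.3.3 (two-sided, Benjamini-Hochberg adjustment), after a check on simulated arrays. The simulated arrays were independent, with no pairing, slide side or array of high background, so the check does not cover those features. No spot was saturated, and the number of arrays limits the precision.

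Deviations from the group means correlated at 0.28, 0.32 and 0.31 between samples of the same number and at -0.26 to -0.093 otherwise, so the numbers were taken to pair the samples, from the data alone. Deviations cancel within a group, so the negative values are not separate evidence. No label says what a number marks, and the results with the block rest on this pairing. Members, pathway lists and markers were chosen with earlier results of these data known. Named in the text were every member, list genes at an unadjusted p under 0.05, otherwise the 2 of highest mean signal per list, and the 3 genes of most like pattern for Rcan1 and Nfatc2. Some genes that this rule names are not reported here. Alternatives covered background correction (normexp on the median signal, offset 50), scaling, filters, the replicate block, a variance trend, array weights, the methods' t-test, the authors' log2 table, the probe of a gene and each array left out.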

Additional observations from a re-analysis of the deposited data

How the results depend on the processing

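No member passed the adjusted threshold under any of the 22 alternatives and no pathway gene did under the 21 run for the lists (all but the mean over the probes of a gene), nor did leaving out any of the 6 arrays add one (0 to 0). The count of members at an unadjusted p under 0.05, 1 as reported, was 0 with normexp, with the percentile over detected probes, without a filter on dim probes and with array weights. It was 2 without normalization, with probes above background on all 6 arrays, with the replicate block and with the methods' t-test, and 3 with a variance trend, and it lay between 0 and 1 with an array left out, where Rcan2 and not Nfatc2 was the member that passed. The count of pathway genes, 1 as reported, was 2 with quantile normalization, the replicate block, a variance trend, array weights and the methods' t-test, 4 without normalization, 0 with probes above background on all 6 arrays, and 1 to 4 with an array left out. The 3 other ways of averaging spots and taking the percentile, tried after the data were seen, changed none of these counts.

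Of 220 fold changes, 202 kept their direction and 18 reversed. Among these, the filters, the replicate block, the variance trend and the methods' t-test could not move a fold change. The mean over probes could not move it for a gene with a single tested probe. The count of kept directions therefore overstates how far the values were tried. Without normalization the median of all probes moved from 0.05 to -0.28, and 7 members reversed with it: Nfatc1 (-0.30), Nfatc2 (-0.091), Nfatc3 (-0.28), Nfatc4 (-0.23), Ppp3ca (-0.29), Ppp3cb (-0.18) and Ppp3r1 (-0.15). That setting shifts every probe by the same amount, so changes relative to the median are equal by construction. Ppp3ca (-0.01), Nfatc1 (-0.02) and Nfatc3 (-0.0056), above 0 as reported, lay below that median. Nfatc1 was -0.00013 with the percentile over detected probes, Nfatc3 was -0.0039 with quantile normalization, Rcan1 was 0.044 with array weights, and the mean over probes gave 0.034 for Nfat5 and -0.035 for Ppp3ca. With an array left out, ranges were -0.079 to 0.088 for Nfatc1, -0.013 to 0.088 for Nfatc3, -0.049 to 0.21 for Nfatc4, -0.076 to 0.024 for Rcan1, -0.70 to -0.27 for Rcan2, -0.26 to -0.15 for Nfat5, 0.0083 to 0.053 for Ppp3ca, 0.069 to 0.24 for Ppp3cb and 0.10 to 0.26 for Ppp3r1. The cause of these changes was not tested. Dim probes near background, such as the second Nfat5 probe, limit what can be read.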
